A study of Mus musculus with 8 samples.

Results

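The 9 genes described here, Umod, Egf, Calb1, Pvalb, Klk1, Wnk4, Klhl3, Tfcp2l1 and Ptger3, were chosen by name as genes of the thick ascending limb and the distal tubule. The deposited table lists 53715 genes, of which 35880 have one count for each of the 8 libraries, and 7 of the 9 genes are among these. Pvalb and Klhl3 sit in rows with 10 values, which could not be assigned to libraries, so no value is given for either. All 7 measured genes passed the expression filter that left 9141 genes for testing. Kidneys of wild-type (WT) male C57/BL6J mice were compared, collected 72 h after injection. Of these, 4 were from mice given saline (control 1, 2, 3 and 5). The other 4 were from mice given 23 mg/kg cisplatin intraperitoneally (cisplatin 1, 3, 4 and 6). The age of the mice was not given in the sources used here. Cisplatin is a platinum chemotherapy drug, and this single dose is a model of acute kidney injury. Each library is taken as the kidney of a separate mouse, so the p-values measure the spread between these mice.

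The thick ascending limb reabsorbs salt without water and secretes uromodulin, the most abundant protein of normal urine. The distal convoluted tubule that follows it reabsorbs sodium chloride through the thiazide-sensitive transporter and sets magnesium balance, and the connecting tubule reabsorbs calcium. Umod encodes uromodulin, Egf the precursor of epidermal growth factor, Calb1 the calcium-binding protein calbindin-D28K, Pvalb parvalbumin, another calcium-binding protein, and Klk1 tissue kallikrein, a kinin-releasing protease. Wnk4 is a kinase that acts on the salt transporters of this stretch, and Klhl3 is the adaptor through which WNK kinases are degraded. Tfcp2l1 is a transcription factor of the distal nephron and collecting duct, and Ptger3 is the EP3 receptor for prostaglandin E2. In bulk kidney RNA, fewer cells of a type and less RNA per cell cannot be told apart.

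The total count over the rows used was 13539665 to 16201443 in the controls and 10953338 to 16701599 in the cisplatin-treated kidneys. Exons of Umod, Egf and Wnk4 overlap antisense genes, and whether the counting used the strand is not given in the sources used here, so their counts might hold reads of those genes. The second principal component, with 15.96% of the variance, placed control 5, cisplatin 4 and cisplatin 6 on the opposite side from control 1, 2 and 3 and cisplatin 1 and 3. The Y-linked genes Eif2s3y and Kdm5d had 3 and 2 counts in cisplatin 1 and 0 in cisplatin 3, against 541 to 1333 and 274 to 576 counts in the other 6 libraries, although all mice were stated to be male. Cisplatin 1 and 3 therefore go against the stated sex, and the results below are also given without them. Cisplatin 4 and 6, which then remain, both lie on the side of control 5, and control 1, 2 and 3 do not. Treatment and that side are thus in part confounded in the fit without cisplatin 1 and 3. Levels in CPM are counts relative to a library's total count multiplied by a normalization factor of that library, called TMM below. The factor was 0.785 to 0.8535 in the controls and 1.152 to 1.317 in the cisplatin-treated kidneys. Compared with the total count alone, it raised the CPM of every control and lowered those of every treated kidney. The proximal tubule is the segment known as the main site of cisplatin injury. Summed over 17 of its markers, the level was 76490 to 96140 CPM in the controls and 1722 to 16600 CPM in the cisplatin-treated kidneys.

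The stretch before the transcription start is shown for 3 of the genes, those with the largest (Egf), the next largest (Umod) and the smallest (Tfcp2l1) log2 fold change. Each run is the 250 bases before the RefSeq start on GRCm38.p6, read 5′ to 3′ on the strand of the gene. Umod lies on the minus strand at chr7:119479263-119479512, Egf on the minus strand at chr3:129755323-129755572, and Tfcp2l1 on the plus strand at chr1:118627695-118627944. Capitals mark matches to 3 motifs named after the sequences, searched on both strands.
Umod: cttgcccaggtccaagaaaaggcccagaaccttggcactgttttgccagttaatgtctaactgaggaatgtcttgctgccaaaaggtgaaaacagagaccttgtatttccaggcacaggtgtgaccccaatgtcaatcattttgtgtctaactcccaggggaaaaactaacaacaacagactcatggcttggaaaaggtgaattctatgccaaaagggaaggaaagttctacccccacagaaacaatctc
Egf: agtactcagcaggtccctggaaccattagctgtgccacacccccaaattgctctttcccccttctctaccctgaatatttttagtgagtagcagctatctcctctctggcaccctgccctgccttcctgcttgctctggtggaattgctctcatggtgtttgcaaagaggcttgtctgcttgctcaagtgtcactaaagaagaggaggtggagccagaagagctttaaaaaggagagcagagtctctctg
Tfcp2l1: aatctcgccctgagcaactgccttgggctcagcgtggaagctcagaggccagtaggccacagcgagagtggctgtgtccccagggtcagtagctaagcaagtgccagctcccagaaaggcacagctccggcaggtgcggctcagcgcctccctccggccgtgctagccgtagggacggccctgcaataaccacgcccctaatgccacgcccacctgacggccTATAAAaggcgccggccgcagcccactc
The capitals in Tfcp2l1 spell TATAAA, the TATA box, and begin 28 bases before the start. In the RefSeq windows of 300 bases, 250 before and 50 after the start, TATAAA occurred in 13.6% of 32851 promoters. TCAAGGTCA, the element of the estrogen-related receptors, occurred in 0.423% and AACCGGTT, the element of the grainyhead family, in 0.146%, and neither was found in the windows of the genes described here. Calb1 has no entry in the promoter table used, and Umod, Egf, Pvalb, Klk1, Wnk4, Klhl3 and Ptger3 had no match to these 3 motifs. Of the starts RefSeq gives for Egf, the most upstream is shown. A match is a string of letters and not a binding site.

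All 7 genes had a lower mean in the cisplatin-treated kidneys, and 4 of them, Umod, Egf, Calb1 and Ptger3, were down-regulated past both thresholds, an adjusted p under 0.05 in edgeR's quasi-likelihood test and a log2 fold change past ±1. None of the 7 was up-regulated. Of all 9141 genes tested, 15.7% were down-regulated and 19.2% up-regulated (1434 and 1754 genes), and the median log2 fold change was 0.077. Wnk4 passed the adjusted p but not the fold threshold, Klk1 just passed the fold threshold but not the adjusted p, and Tfcp2l1 passed neither. The share of the 7 genes that was down-regulated, 4 of 7, stood beside a median log2 fold change over the 7 of −1.34. Without cisplatin 1 and 3, 6 of the 7 were down-regulated. Calls rose over all genes in that fit too, to 1899 down-regulated and 1984 up-regulated. Scaling by the total count alone in place of the trimmed mean of M values (TMM) raised the median of all genes from 0.077 to 0.645, called 3174 genes up and 803 down, and left Egf as the 1 gene of the 7 that was called.

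**Figure D1:**
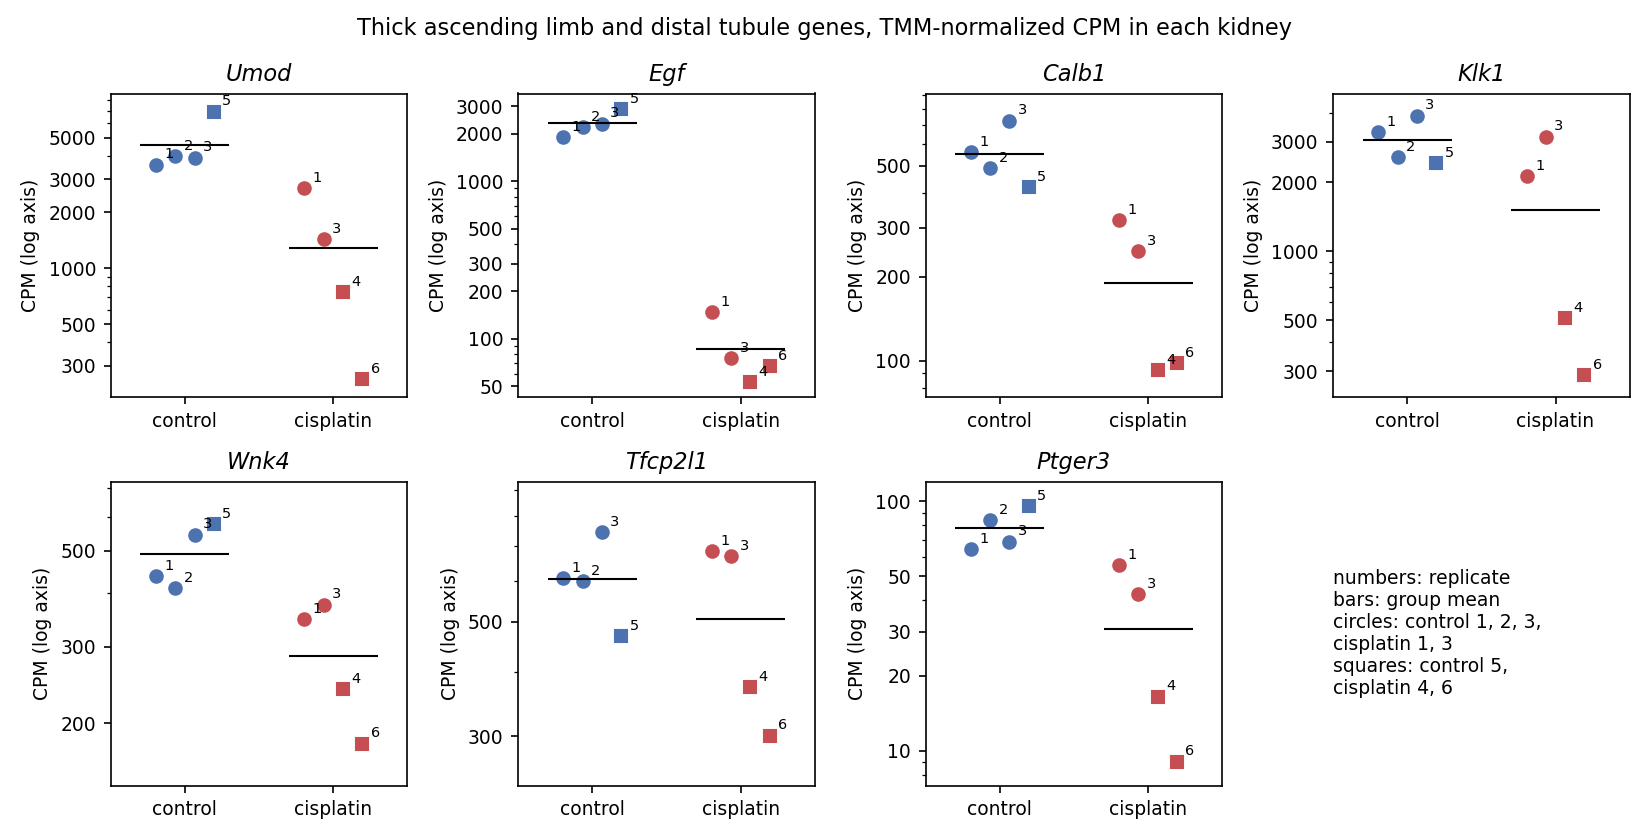
TMM-normalized CPM (y axis, log scale) of the 7 measured genes in each of the 4 control (blue) and 4 cisplatin-treated (red) kidneys, with the replicate number beside each point, bars at the group mean, and squares for control 5, cisplatin 4 and cisplatin 6. Egf shows the widest gap between the groups, from 1913 to 148 CPM, and in all 7 panels cisplatin 1 and 3 lie above cisplatin 4 and 6.

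Egf fell the most of the 7 genes. The gene (ENSMUSG00000028017, GRCm38 chr3:129677565-129755316, minus strand) encodes a membrane-bound precursor from which the growth factor is released into the urine. Its level was 1913, 2216, 2326 and 2886 CPM in control 1, 2, 3 and 5, and 148, 75.1, 53.3 and 67.1 CPM in cisplatin 1, 3, 4 and 6. The groups did not overlap, and the highest cisplatin-treated kidney was far below the lowest control. The mean was 2335 ± 406 CPM (SD, n = 4) in the controls and 85.8 ± 42.3 CPM (SD, n = 4) after cisplatin, 27.2-fold lower. The log2 fold change was −4.77 ± 0.36 (SE), with a 95% confidence interval from −5.58 to −3.95 and an adjusted p of 1.05e-05. Of the 9141 genes, 73, or 0.799%, had a more negative log2 fold change. It was −4.33 among control 1, 2 and 3 and cisplatin 1 and 3, and −5.27 without cisplatin 1 and 3.

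Of the other genes of the epidermal growth factor system none was down-regulated. Of 13 ligands, receptors and shedding proteases listed, 6 could be tested, 3 were up-regulated and none was down-regulated, with a median log2 fold change of 0.76. Egfr, the receptor of the growth factor, was at 140, 124, 130 and 114 CPM in the controls and 125, 163, 79.7 and 77.6 CPM after cisplatin. These ranges overlapped, and its log2 fold change of −0.19 ± 0.24 (SE) had an adjusted p of 0.537. Tgfa, another ligand of the same receptor, was at 12.3, 14.9, 7.89 and 8.96 CPM in the controls and 37.0, 56.8, 37.2 and 42.5 CPM after cisplatin, a log2 fold change of 1.98 ± 0.25 (SE, adjusted p = 0.000173). Nrg1, a ligand of related receptors, rose by a log2 fold change of 1.67 ± 0.25 (SE, adjusted p = 0.000515). Areg, the ligand amphiregulin, was at or under the level of 3 counts in the 4 controls and at 4.10 to 5.00 CPM in the 4 cisplatin-treated kidneys (adjusted p = 3.60e-05). All 3 ligands were also up-regulated without cisplatin 1 and 3.

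Umod was down-regulated with a wide spread among the treated kidneys. The gene (ENSMUSG00000030963, GRCm38 chr7:119462711-119479282, minus strand) was at 3596, 3989, 3917 and 6921 CPM in control 1, 2, 3 and 5, and at 2682, 1437, 747 and 254 CPM in cisplatin 1, 3, 4 and 6. The groups did not overlap. Control 5 was well above the other controls, and cisplatin 1 was closest to them. The mean was 4606 ± 1553 CPM (SD, n = 4) in the controls and 1280 ± 1053 CPM (SD, n = 4) after cisplatin, 3.60-fold lower. The log2 fold change was −1.85 ± 0.60 (SE), with a 95% confidence interval from −3.18 to −0.51 and an adjusted p of 0.0274. The call rested on single kidneys, since it was lost without control 5 (−1.59, adjusted p = 0.0665) or without cisplatin 4 (−1.66, adjusted p = 0.0678). Without cisplatin 1 and 3 the log2 fold change was −3.18 (adjusted p = 0.00139), and among control 1, 2 and 3 and cisplatin 1 and 3 it was −0.96 (adjusted p = 0.0120), under the fold threshold.

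Slc12a1 and genes listed for the processing and transcription of uromodulin were examined beside Umod. Slc12a1, the furosemide-sensitive cotransporter that defines the thick ascending limb, was at 1448, 1988, 1523 and 1959 CPM in the controls and 1219, 524, 214 and 60.4 CPM after cisplatin. The groups did not overlap and the order of the treated kidneys was that of Umod, but the log2 fold change of −1.78 ± 0.70 (SE) did not pass (adjusted p = 0.0602). It passed without cisplatin 1 and 3, at −3.64 (adjusted p = 0.000815). Of the genes listed for the processing and transcription of uromodulin, Hpn, Prss8 and Hnf4a were down-regulated. The log2 fold change was −1.98 for Hpn, the protease hepsin that releases uromodulin from the membrane, −2.07 for Prss8, the protease prostasin, and −3.18 for the transcription factor gene Hnf4a (adjusted p from 1.31e-05 to 0.000311). These 3 were down-regulated without cisplatin 1 and 3 too. Each of the 3 was lowest in cisplatin 1 among the treated kidneys, where Umod was highest (Hnf4a at 85.3, 128, 253 and 187 CPM in cisplatin 1, 3, 4 and 6). For Hpn and Prss8 the gap to the next kidney was narrow. In the same order Hpn was at 134.7, 136.7, 253 and 154.4 CPM. Prss8 was at 124.7, 136.6, 161.9 and 125.7 CPM, so it was close to its lowest level also in cisplatin 6, where Umod was lowest. Hpn and Hnf4a are expressed in the proximal tubule, whose markers fell in the same kidneys. The part of that segment in the values of the 3 genes was not tested.

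Calb1 was down-regulated, and every treated kidney was below every control. The gene (ENSMUSG00000028222, GRCm38 chr4:15881264-15908064, plus strand) was at 561, 491, 727 and 421 CPM in control 1, 2, 3 and 5, and at 320, 247, 92.5 and 98.3 CPM in cisplatin 1, 3, 4 and 6. Cisplatin 4 and 6 were the lowest, with no overlap between the groups. The difference on the log2 scale was −1.54 ± 0.41 (SE), with a 95% confidence interval from −2.45 to −0.63 and an adjusted p of 0.0110. Calb1 remained down-regulated with any single library left out, among control 1, 2 and 3 and cisplatin 1 and 3 (−1.12) and without cisplatin 1 and 3 (−2.52).

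Among 15 further genes of the connecting tubule and of calcium transport, 10 could be tested, 4 were down-regulated and none up-regulated, with a median log2 fold change of −0.996. The 4 were Kl, the co-receptor klotho (−4.23 on the log2 scale), Pth1r, the parathyroid hormone receptor (−3.12), Slc8a1, a sodium-calcium exchanger (−2.27), and Vdr, the vitamin D receptor (−1.47), with adjusted p from 1.76e-05 to 0.00356. In the fit without cisplatin 1 and 3, 9 of the 10 were down-regulated, and under total-count scaling 3 were. Kl, Pth1r and Vdr are also expressed in the proximal tubule. Trpv5, the apical calcium channel of the same cells as Calb1, was at 40.6, 35.9, 50.3 and 26.8 CPM in the controls and 58.1, 57.4, 13.03 and 18.6 CPM after cisplatin. Cisplatin 1 and 3 were above all controls and cisplatin 4 and 6 below them, so the log2 fold change of −0.06 ± 0.46 (SE, adjusted p = 0.929) averaged opposite values. Without cisplatin 1 and 3, Trpv5 was down-regulated at −1.27 (adjusted p = 0.00631). Calb2, the gene of the related calretinin, had no count in any library.

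Wnk4 was lower in every treated kidney than in every control, by less than the fold threshold. The gene (ENSMUSG00000035112, GRCm38 chr11:101260567-101277409, plus strand) was at 437, 411, 545 and 577 CPM in control 1, 2, 3 and 5, and at 348, 376, 240 and 179 CPM in cisplatin 1, 3, 4 and 6. The groups did not overlap, and the gap between cisplatin 3 and control 2 was narrow. On the log2 scale the difference was −0.78 ± 0.25 (SE), with a 95% confidence interval from −1.34 to −0.23 and an adjusted p of 0.0250. It was −0.41 among control 1, 2 and 3 and cisplatin 1 and 3, and −1.22 without cisplatin 1 and 3 (adjusted p = 0.00177), where it passed both thresholds.

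The cascade around Wnk4 carries the signal from WNK kinases to the sodium chloride transporters. Of 18 further genes of that cascade, 10 could be tested, 4 were down-regulated and none up-regulated, with a median log2 fold change of −1.08. The kinases that WNK kinases phosphorylate, Stk39 and Oxsr1, had no usable row. Wnk1, whose short kidney form is abundant in the distal convoluted tubule, was at 680, 697, 970 and 595 CPM in the controls and 319, 416, 175 and 198 CPM after cisplatin, a log2 fold change of −1.41 ± 0.30 (SE, adjusted p = 0.00338). The log2 fold change was −2.52 for Wnk2 and −1.13 for Kcnj10, a basolateral potassium channel. Slc12a3, the thiazide-sensitive transporter at the end of the cascade, was at 1910, 1808, 2973 and 2127 CPM in the controls and 205, 423, 108 and 121 CPM after cisplatin. Its groups lay far apart, and the log2 fold change was −3.36 ± 0.45 (SE, adjusted p = 0.000265). Slc12a3 and Wnk2 were also down-regulated under total-count scaling, and Wnk1 and Kcnj10 were not. Leaving out cisplatin 1 and 3 brought the count to 6 of the 10.

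Klk1 divided the treated kidneys. The gene (ENSMUSG00000063903, GRCm38 chr7:44225360-44229618, plus strand) was at 3305, 2565, 3897 and 2419 CPM in control 1, 2, 3 and 5, and at 2118, 3156, 510 and 289 CPM in cisplatin 1, 3, 4 and 6. Cisplatin 3 was within the range of the controls, cisplatin 1 just under it, and cisplatin 4 and 6 were far below. The difference on the log2 scale was −1.005 ± 0.64 (SE), just past the fold threshold, with a 95% confidence interval from −2.43 to 0.42 and an adjusted p of 0.219. Klk1 was down-regulated without cisplatin 3 (−1.69, adjusted p = 0.0465) and without cisplatin 1 and 3 (−2.92, adjusted p = 0.000295). Among control 1, 2 and 3 and cisplatin 1 and 3 the log2 fold change was −0.36 (adjusted p = 0.235).

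Of 22 other kallikrein and kinin genes listed, 8 could be tested, 4 were up-regulated and 1 was down-regulated. Kng2, a kininogen gene, held most of the summed level of the list, at 369 to 577 CPM in the controls and 271 to 433 CPM after cisplatin, and was not called (−0.35, adjusted p = 0.193). The mouse Klk1b genes are close copies of Klk1, so reads could be split between them in a way the sources used here do not state. Klk1b3 was at 0.708, 0.957, 0.834 and 0.629 CPM in the controls and 6.23, 8.58, 1.68 and 0.793 CPM after cisplatin, a log2 fold change of 2.47 ± 0.69 (SE, adjusted p = 0.0142). Klk1b9, Klk1b24 and Kng1, another kininogen gene, likewise were highest in cisplatin 1 and 3, and none of the 4 was up-regulated without these kidneys. Klkb1, plasma kallikrein, was at −1.52 on the log2 scale (adjusted p = 0.0310).

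Tfcp2l1 differed least. The gene (ENSMUSG00000026380, GRCm38 chr1:118627945-118685168, plus strand) was at 607, 598, 744 and 468 CPM in control 1, 2, 3 and 5, and at 683, 668, 373 and 301 CPM in cisplatin 1, 3, 4 and 6. Cisplatin 1 and 3 were within the control range and cisplatin 4 and 6 below it. On the log2 scale the difference was −0.26 ± 0.29 (SE), with a 95% confidence interval from −0.90 to 0.38 and an adjusted p of 0.487. The sign turned under total-count scaling (0.33), and without cisplatin 1 and 3 the value was −0.83 (adjusted p = 0.0130), still under the fold threshold. Of 3 related factors that could be tested, Grhl1 and Grhl2, grainyhead-like epithelial factors, were up-regulated at 1.89 and 1.44 on the log2 scale (adjusted p of 0.00166 and 0.00143), and Tfcp2 was at −0.93 (adjusted p = 0.00108), just under the fold threshold. Tfcp2 was down-regulated without cisplatin 1 and 3 (−1.17, adjusted p = 0.000328). Grhl2 was at 0.93 and no longer past the fold threshold without cisplatin 1 and 3.

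Ptger3 was the least abundant of the 7 genes. The gene (ENSMUSG00000040016, GRCm38 chr3:157566892-157645888, plus strand) was at 64.1, 83.9, 68.9 and 95.5 CPM in control 1, 2, 3 and 5, and at 55.3, 42.4, 16.5 and 9.04 CPM in cisplatin 1, 3, 4 and 6. The lowest level, in cisplatin 6, rested on 114 counts. The groups did not overlap, although cisplatin 1 came close to control 1. The difference on the log2 scale was −1.34 ± 0.48 (SE), with a 95% confidence interval from −2.41 to −0.27 and an adjusted p of 0.0413. The call was lost without control 1, 2, 3 or 5, or without cisplatin 4, with adjusted p from 0.0601 to 0.0944. The difference was −2.60 without cisplatin 1 and 3 (adjusted p = 0.000278) and −0.62 among control 1, 2 and 3 and cisplatin 1 and 3 (adjusted p = 0.0125). Of the 11 other genes of prostaglandin E2 synthesis and reception, 2 could be tested, the synthase Ptges2 and the EP1 receptor gene Ptger1, and neither was called (0.22 and 0.02 on the log2 scale, adjusted p of 0.529 and 0.973).

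The treated kidneys differed from each other in the same direction for all 7 genes. In each gene both cisplatin 1 and 3 were above both cisplatin 4 and 6, which was so in 36.2% of all genes tested, with the opposite order in 36.7%. The ratio of the mean of cisplatin 1 and 3 to the mean of cisplatin 4 and 6 was 6.60 for Klk1, 4.11 for Umod, 3.83 for Ptger3, 2.97 for Calb1, 2.003 for Tfcp2l1, 1.85 for Egf and 1.72 for Wnk4. The sum of the proximal tubule markers had the opposite order, with 2166 and 1722 CPM in cisplatin 1 and 3 and 10410 and 16600 CPM in cisplatin 4 and 6. Kap alone was at 544 and 229 CPM in cisplatin 1 and 3 and at 6220 and 11020 CPM in cisplatin 4 and 6. Lrp2, Slc5a12 and Aqp1 did not have this order. The sum of the markers of injured tubule cells was higher in cisplatin 1 and 3 (37130 and 40510 CPM) than in cisplatin 4 and 6 (21900 and 20040 CPM). Spp1 was the largest part of it (23830 and 23680 against 10440 and 8665 CPM). Krt20, Cdkn1a, Krt8 and Krt18 had the opposite order, and Havcr1 and Sox9 had neither. The part of these markers in the spread of the 7 genes was not tested. Among the cisplatin-treated kidneys the missing Y-linked counts and the side of the second principal component fall together and cannot be told apart.

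**Figure D2:**
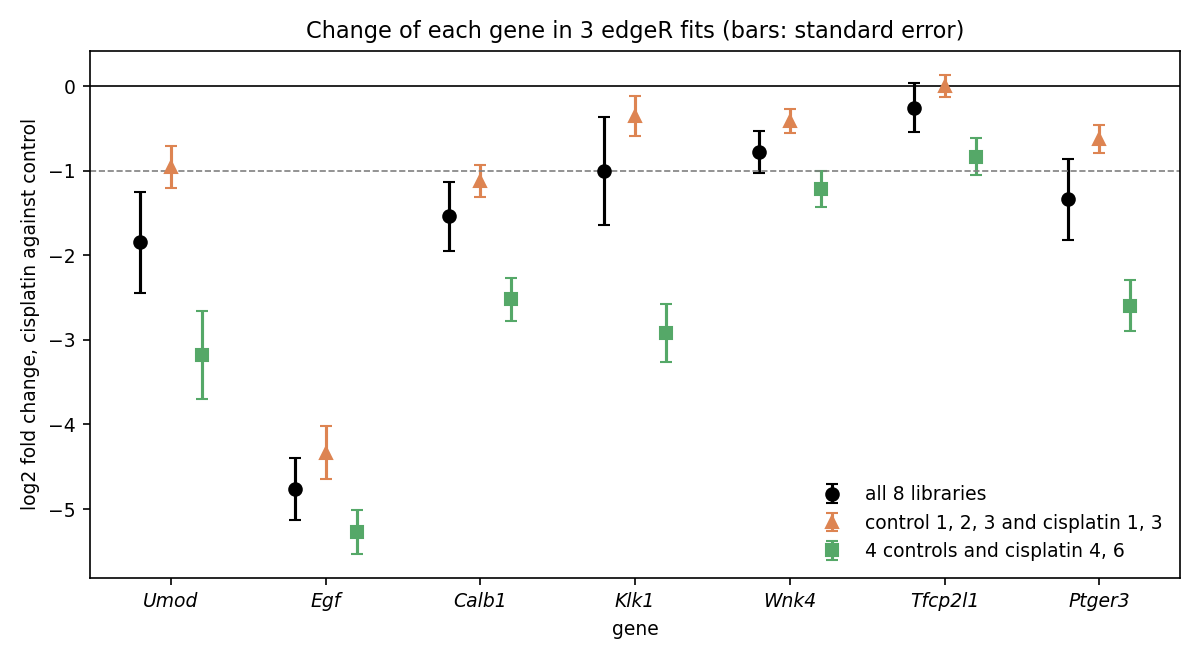
Log2 fold change, cisplatin against control (y axis), of the 7 genes (x axis) in 3 edgeR fits, with bars for the standard error and a dashed line at the fold threshold of −1. Black circles use all 8 libraries, orange triangles control 1, 2 and 3 with cisplatin 1 and 3, and green squares the 4 controls with cisplatin 4 and 6. The green squares are the lowest for each gene, and Egf stays below −4 in all 3 fits.

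Ratios between the 7 genes were compared within each kidney. The ratio of a pair of genes in 1 library does not depend on the scaling between libraries, and all 21 pairs were compared with an exact two-sided permutation test over the 8 kidneys, whose smallest possible p is 0.0286. In 10 pairs the control and treated ratios did not overlap and the exact test gave that smallest p. It became 0.06 after Benjamini-Hochberg adjustment over the 21 pairs, so none passed 0.05. No pair can have a smaller p with 8 kidneys, so whether a pair passes depends on how many pairs reach that p. The pairs also share genes and are not independent. The log2 ratio of Umod to Egf was 0.91, 0.85, 0.75 and 1.26 in the controls and 4.18, 4.26, 3.81 and 1.92 after cisplatin. Cisplatin 6 was nearest to the controls, and the difference of the means was 2.60 on the log2 scale. For Egf over Wnk4 the difference was −4.03, for Egf over Tfcp2l1 −4.54, and for Egf over Klk1 −3.28. All 6 pairs with Egf were among the 10, and in each the count of Egf was lower relative to its partner after cisplatin. In the other 4 pairs the counts of Umod, Calb1, Wnk4 and Ptger3 were lower relative to Tfcp2l1. By contrast, the log2 ratio of Calb1 to Ptger3 moved by −0.06 (exact permutation p = 0.886) and that of Klk1 to Ptger3 by 0.08 (exact permutation p = 0.914), with overlapping values. Without cisplatin 1 and 3 the differences were within 1 SD of these values for all pairs but Klk1 over Wnk4 (−0.75 as reported, −1.73 without them), Klk1 over Tfcp2l1 (−1.26 and −2.13) and Wnk4 over Ptger3 (0.83 and 1.42).

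**Figure D3:**
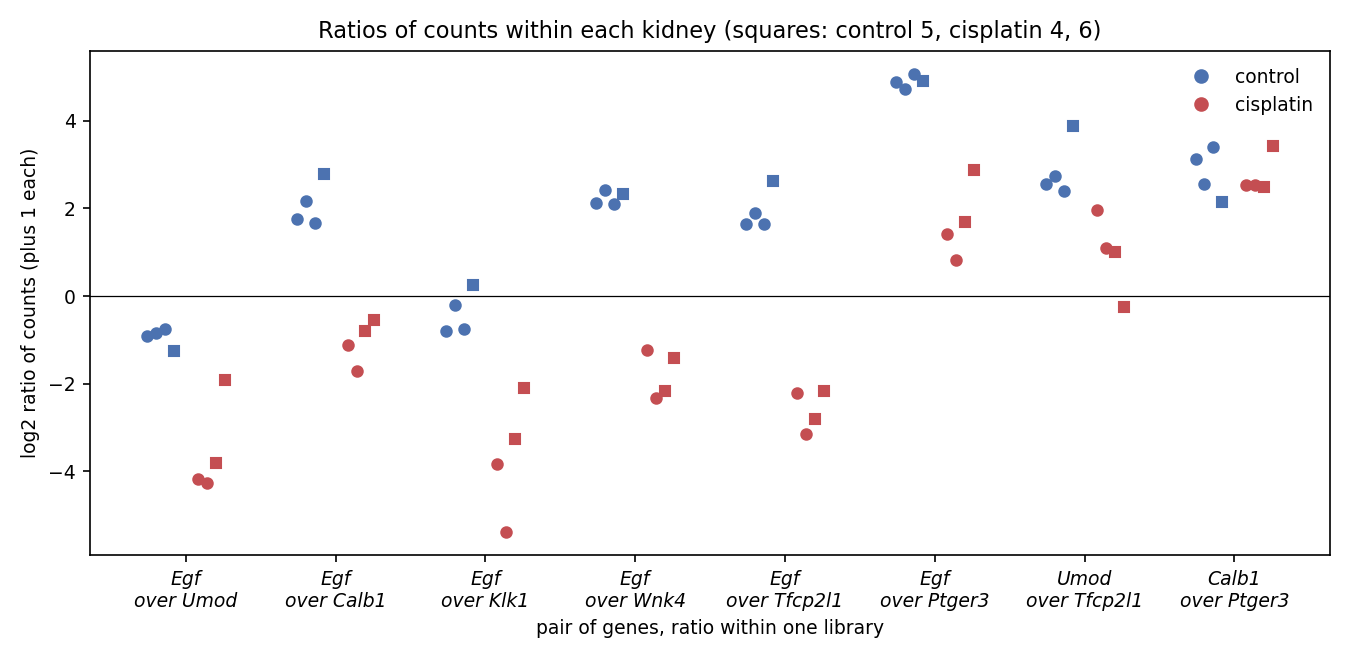
Log2 ratio of the counts of a pair of genes within each kidney (y axis) for 8 pairs (x axis), with controls in blue, cisplatin-treated kidneys in red, and squares for control 5, cisplatin 4 and cisplatin 6. In the 6 pairs with Egf over another gene, and in Umod over Tfcp2l1, the treated kidneys lie below the controls without overlap, while Calb1 over Ptger3 overlaps.

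Further genes of the same segments were down-regulated. In a list of 25 thick ascending limb genes, 10 could be tested, 6 were down-regulated and none up-regulated, with a median log2 fold change of −1.86. Slc12a1 (−1.78), Tmem207 (−1.53), Esrrb (−0.56) and Irx2 (0.11) were the 4 not called. Kcnj16 and Fxyd2, among the 6, are in the distal convoluted tubule list too. The part of other segments, the proximal tubule among them, in the values of these lists was not tested. Casr, the calcium-sensing receptor, was at 56.7, 64.4, 89.9 and 68.0 CPM in the controls and 13.1, 11, 4.17 and 2.46 CPM after cisplatin, a log2 fold change of −3.16 (adjusted p = 0.000504). Sfrp1, a secreted Wnt-binding protein, was at −2.70, Nos1, the nitric oxide synthase of the macula densa, at −2.37, and Kcnj16, a basolateral potassium channel subunit, at −2.20. Kcnj1, the apical potassium channel of this segment, had no usable row. In a list of 20 distal convoluted tubule genes, 12 could be tested, 10 were down-regulated and none up-regulated, with a median of −1.77. Besides Slc12a3, the most negative log2 fold changes were those of Abca13, a transporter (−3.93), Emx1, a transcription factor (−2.49), and Kcnj15, a potassium channel also found in the proximal tubule (−2.22). Trpm6, the magnesium channel, was at 20.01, 22.7, 30.6 and 20.8 CPM in the controls and 16.9, 23.5, 10.6 and 13.8 CPM after cisplatin and did not pass (−0.53, adjusted p = 0.117). Leaving out cisplatin 1 and 3, 9 of the 10 thick ascending limb genes and 11 of the 12 distal convoluted tubule genes were down-regulated. Under total-count scaling these counts were 5 and 7. Among control 1, 2 and 3 and cisplatin 1 and 3 they were 6 and 8. Of all genes tested, 15.7% were down-regulated as reported.

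Collecting duct principal cells take up water through aquaporins. Of 16 listed genes 10 could be tested, 3 were up-regulated and none down-regulated, with a median log2 fold change of 0.25. Aqp2, the vasopressin-regulated water channel, was at 132, 175, 153 and 407 CPM in the controls and 790, 639, 763 and 323 CPM after cisplatin. Control 5 was above cisplatin 6, so the groups overlapped, and the log2 fold change was 1.54 ± 0.40 (SE, adjusted p = 0.0109). Fxyd4, a sodium pump subunit, was at 1.88 and St6gal1, a sialyltransferase, at 1.12 on the log2 scale. Without cisplatin 1 and 3, Aqp2 and Fxyd4 were up-regulated, 2 other genes of the list were down-regulated, and the median was −0.28. In the list of 18 genes of intercalated cells, which secrete acid or base, 10 could be tested, 4 were down-regulated and none up-regulated, with a median of −0.69. These were Slc4a1, the anion exchanger (−3.59), Insrr, an alkali-sensing receptor (−2.63), Car12, a carbonic anhydrase also found in the proximal tubule (−2.29), and Atp6v0a4, a proton pump subunit (−1.09). Leaving out cisplatin 1 and 3, 6 of these 10 were down-regulated, with a median of −1.17, and under total-count scaling 3 were, with a median of −0.10. Over the 48 tested genes of the distal nephron lists together, 22 were down-regulated and 3 up-regulated. For all genes tested the shares were 15.7% and 19.2%. Under total-count scaling 17 of the 48 were down-regulated and 3 up-regulated. Without cisplatin 1 and 3 these counts were 34 and 2, where 1899 and 1984 of all genes were called.

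Markers of cell types outside the distal nephron changed in the same kidneys. All 17 tested proximal tubule markers were down-regulated, with a median log2 fold change of −4.01, and 9 of 10 tested markers of injured tubule cells were up-regulated, with a median of 5.18. Their summed level was 1596 to 1841 CPM in the controls and 20040 to 40510 CPM after cisplatin. Of the tested leukocyte markers 3 of 6 were up-regulated and Ptprc was down-regulated, with sums of 80.4 to 142.7 and 57.5 to 142.9 CPM. Of the fibroblast and mural markers 3 of 5 were up-regulated (231 to 441 against 601 to 1676 CPM), of the podocyte markers 1 of 5 (403 to 794 against 443 to 681 CPM), and of the endothelial markers none of 4 was called (256 to 476 against 148 to 334 CPM). In the fit without cisplatin 1 and 3, 3 of the 4 endothelial markers were down-regulated, with a median log2 fold change of −1.06, and the counts for the other 5 of these lists were the same. No tested marker of these lists was at 0 in every library. Summed over the 7 genes, the level was 10480, 10350, 12230 and 13790 CPM in control 1, 2, 3 and 5 and 6353, 6002, 2033 and 1198 CPM in cisplatin 1, 3, 4 and 6. The part of these other cells in the levels of the 7 genes was not tested.

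**Figure D4:**
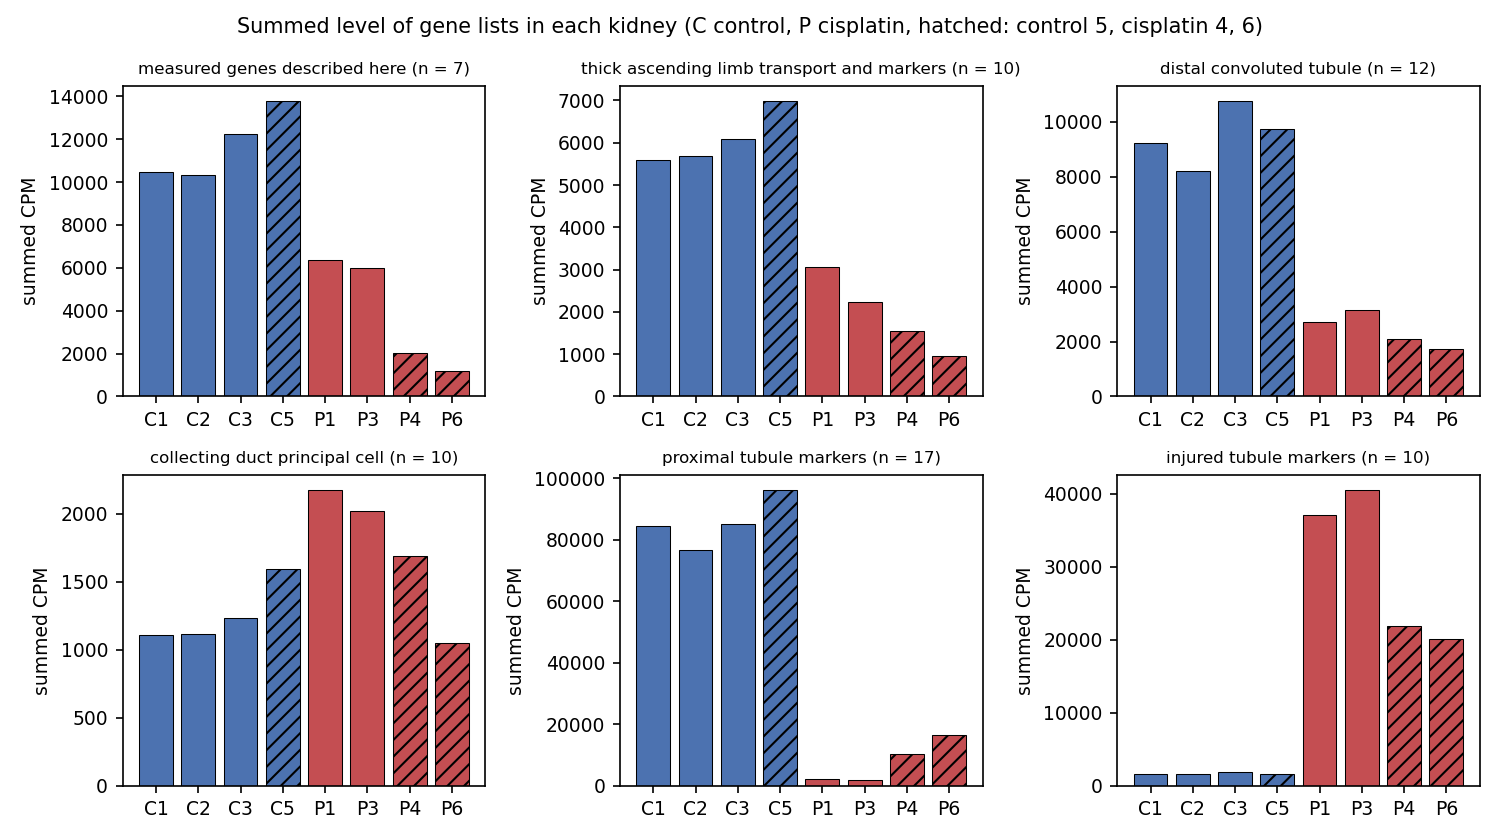
Summed TMM-normalized CPM (y axis, from 0) of 6 gene lists in each control (C, blue) and cisplatin-treated (P, red) kidney (x axis), with hatched bars for control 5, cisplatin 4 and cisplatin 6. The sums of the 7 genes, the thick ascending limb and the distal convoluted tubule are below all controls in the treated kidneys, those of the collecting duct principal cell reach 2175 CPM in cisplatin 1, and the proximal tubule markers are lowest in cisplatin 1 and 3.

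Per kilobase of the gene length given in the table, the order of the mean levels in the controls was Klk1 (2829 ± 638 CPM per kb, SD, n = 4), Umod (1667 ± 562), Egf (207 ± 36.0), Wnk4 (119 ± 19.5), Calb1 (114 ± 27.1), Tfcp2l1 (64.0 ± 12.0) and Ptger3 (13.7 ± 2.53). Wnk4 and Calb1 differed by less than their spread. After cisplatin the order per kilobase was Klk1 (1410 ± 1265), Umod (463 ± 381), Wnk4 (68.9 ± 22.2), Tfcp2l1 (53.7 ± 20.9), Calb1 (39.1 ± 23.2), Egf (7.61 ± 3.75) and Ptger3 (5.42 ± 3.82). Egf thus moved from the third to the sixth place, where its level and that of Ptger3 differed by less than their spread. Klk1 and Umod, Wnk4 and Tfcp2l1, and Tfcp2l1 and Calb1 also lay within their spread of each other.

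The genes most like each of the 7 were taken as those with the smallest root mean square difference in log2(CPM + 1) over the 8 libraries, each gene relative to its control mean. For Umod these were Egfl6 (0.27), Slc12a1 (0.36) and Kcnt1 (0.42), and for Egf they were Gm4450 (0.39), Cyp2j11 (0.47) and Car4 (0.52). For Calb1 they were Cdkal1, Prkce and Ift80 (0.18 to 0.22), for Klk1 Flrt1, Pde1a and Ppargc1a (0.36 to 0.44), and for Wnk4 Tbc1d14, Pde4dip and Rap1gap2 (0.098 to 0.12). For Tfcp2l1 they were Tle4, Foxn3 and Srgap2 (0.078 to 0.12), and for Ptger3 Fhod3, Cyfip2 and Bckdhb (0.18 to 0.27). The smallest differences belonged to the genes that moved least, and the measure describes these 8 libraries alone.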

How the data were processed

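RNA of 8 mouse kidneys was sequenced. The paper's methods name kidney tissue for sequencing, without the part of the kidney. Per the submitters' processing notes reads passed fastp and were aligned with HISAT2 to GRCm38, and the authors deposited raw read counts per gene, without normalization. How reads were counted, with which annotation and strand setting, is not given in the sources used here, so reads of Umod, Egf and Wnk4 and of antisense genes that overlap their exons might not be told apart. The library kit named in the labels and that in the paper differ. The 17835 rows with 10 values, and their 2 unnamed columns of values, were not used, so totals cover part of each library. At these totals 3 counts, the smallest level taken as measurable, were 0.180 to 0.274 CPM before TMM, which covers counting error only.

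Groups came from the labels. Counts were filtered by filterByExpr, normalized by TMM and tested in edgeR 4.0.16 (R 4.3.3) by quasi-likelihood, with p-values adjusted after Benjamini and Hochberg over all 9141 genes. Standard errors were the log2 fold change divided by the square root of F. CPM values are TMM-normalized. Ratios of counts (plus 1 each) were compared by exact permutation in scipy 1.17.1. The fits were tested on simulated data, where edgeR recovered 76.5% of 200 genes given a log2 change of 2.

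The genes and the gene lists were chosen with earlier results of these data known, and the 7 genes are left out of the lists. Named were the 7 genes, preset segment genes, list genes called against the majority of their list, and up to 4 called genes per list with the largest change at a mean of at least 1 CPM. Marker lists of other cell types are summarised. Tfcp2, Calb2, Kng2, Ptges2, Ptger1, Eif2s3y and Kdm5d were named after their values were seen. So were Tmem207, Irx2, Esrrb, Fxyd2 and the single markers of injured tubule cells and of the proximal tubule. A gene that this rule names, and a promoter motif, are not reported here. The alternatives were DESeq2 1.42.0, other scalings and filters, a test against a threshold of 1 on the log2 scale, a replicate block, the library set, and each library left out. Promoter letters and starts are RefSeq's on GRCm38.p6, where 8 of the 9 genes had an entry. Coordinates are those of the deposited table, the same in GENCODE M21.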

Additional observations from a re-analysis of the deposited data

Results flagged for a closer look

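In groups of 4 kidneys, a value was marked where its gap to the nearest other kidney exceeded Dixon's 95% critical value as a share of its group's range, and 2 of the 28 groups examined were marked, where chance marks about 1 in 20. Umod was at 6921 CPM in control 5 and at 3596 to 3989 CPM in the other controls. Aqp2 was at 407 CPM in control 5 and at 132 to 175 CPM in the other controls.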

How the results depend on the processing

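Egf was down-regulated under all 21 alternatives and Calb1 under 19. The number of the 7 genes down-regulated, 4 as reported, was 1 with total-count scaling, 1 in a test against 1 on the log2 scale, 2 among control 1, 2 and 3 and cisplatin 1 and 3, and 2 to 5 with single libraries left out. The log2 fold change of Tfcp2l1 turned positive with total-count scaling (0.33), with the replicate block (0.007) and among control 1, 2 and 3 and cisplatin 1 and 3 (0.0006). Of the distal nephron list genes, 34 were down-regulated without cisplatin 1 and 3, where 1899 of all genes were, and 1 was up-regulated in the test against 1. Over all genes, 803 were down-regulated with total-count scaling and 803 in the test against 1, while 3174 were up-regulated with total-count scaling, 1101 with at least 10 counts in every library and 885 in the test against 1. Replicate numbers 1 and 3 occur in both groups but no source pairs the mice, and the block on these numbers left 2 of the 7 genes down-regulated. The correlation of deviations was 0.249 and 0.279 for the same numbers. Other pairs among control 1, 2 and 3 and cisplatin 1 and 3 had 0.148 to 0.355. Of 147 alternative log2 fold changes of the 7 genes, 123 kept their direction and side of the thresholds, 17 no longer passed, 4 newly passed and 3 turned. The causes were not tested. Depth did not limit the 7 genes, whose lowest count was 114, but rows left out hold Pvalb, Klhl3 and many list genes.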
